A study of Mus musculus with 206 samples.

Results

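The voltage-gated calcium and sodium channel genes were taken as the protein-coding genes of the mm10 genome (GENCODE M21 annotation) whose symbols start with Cacna, Cacnb or Cacng, or consist of Scn, a number and a or b. The rule found 40 genes of 21670 protein-coding genes on chromosomes 1 to 19 and X. They comprised 10 pore-forming calcium channel subunits, 4 alpha2delta, 4 beta and 8 gamma subunits, 10 pore-forming sodium channel subunits and 4 sodium channel beta subunits. Consensus regions inside these genes, or nearest to one of their transcription start sites (TSS) within 100 kb, numbered 153 of 18272 in prefrontal cortex (PFC), 553 of 60013 in striatum, 147 of 16201 in hippocampus and 105 of 13788 in hypothalamus, between 0.762% and 0.921% of each list.

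The measured mark was H3K27ac, an acetyl group on histone H3 that marks active promoters and enhancers. It was mapped by MOWChIP-seq, a microfluidic chromatin immunoprecipitation, in about 10000 nuclei per library sorted for the neuronal protein NeuN. All animals were adult C57BL/6NTac mice of both sexes, and their groups are named by the perinatal and then the adult treatment. MOR-LPS and MOR-SAL mice were exposed to morphine before birth, through a minipump in the dam at 10 mg/kg per day, and then by 2 injections per day of 10 mg/kg on postnatal days 1 to 14, and SAL-LPS and SAL-SAL mice received saline in the same way. In adulthood the LPS groups were challenged with lipopolysaccharide, a bacterial endotoxin that triggers inflammation, and the others with saline, and tissue was taken 2 h later. MOR-LPS, MOR-SAL, SAL-LPS and SAL-SAL counted 14, 9, 11 and 8 libraries in PFC and 15, 7, 13 and 10 in striatum. Hippocampus held 10, 11, 12 and 11 libraries in the same order, and hypothalamus 10, 12, 11 and 8. Each library came from 1 animal and 1 brain region, and its depth is given here by its number of peaks, which ranged from 10811 to 143527 over the 172 libraries used.

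Voltage-gated channels open when the membrane depolarizes. Sodium channels carry the rising phase of the action potential, while calcium channels turn it into calcium entry that drives transmitter release, dendritic signalling and transcription. The pore-forming subunit sets the voltage range and the pharmacology, and the beta, alpha2delta and gamma subunits alter trafficking and gating. Most gamma subunits expressed in brain, the TARPs, act chiefly on AMPA-type glutamate receptors. Several genes of the family are known mainly outside the central nervous system: Cacna1s and Scn4a in skeletal muscle, Cacna1f in retina, and Scn10a and Scn11a in sensory neurons.

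Some properties of the libraries touch the results below. PFC libraries were made with another kit (xGen 2S) than those of the other brain regions (ThruPLEX), so kit and brain region cannot be told apart in any comparison with PFC. PFC libraries also carried striatal markers more often than striatum libraries did: the promoter of Drd1, a dopamine receptor of striatal projection neurons, had a peak among the 10000 strongest of its library in 69.0% of PFC libraries and 31.1% of striatum libraries, and the 9 striatum markers averaged 42.9% and 28.9%. Hypothalamus libraries carried few of the 10 hypothalamic neuropeptide and regulator genes listed as markers (mean 2.93%), and 17.1% of 5 genes listed as thalamus markers. Of these 5, Slc17a6 was marked in 48.8% and Tcf7l2 in 24.4% of hypothalamus libraries. Lef1 was marked in 7.32%, and Prkcd and Ramp3 in 2.44% each. The thalamus marker share thus rests mainly on Slc17a6 and Tcf7l2. Of 9 neuron markers, 53.4% were marked in hypothalamus libraries on average, 52.1% in striatum, 59.1% in hippocampus and 72.0% in PFC. Microglia and endothelial markers averaged 0.794% or less in each brain region. Oligodendrocyte markers averaged 6.78% in hypothalamus, 16.5% in striatum, 6.06% in hippocampus and 10.3% in PFC. Astrocyte markers averaged 5.57%, 2.54%, 9.42% and 3.74% in the same order. Of these, Slc1a2 was marked in 63.6% of hippocampus libraries. Because nuclei were pooled within a library, fewer cells of a type and less acetylation per cell cannot be told apart.

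Channel promoters were marked more often than the average gene. Among the 10000 peaks of highest −log10 p of each library, called the top list here, a peak lay within 1 kb of a TSS for a median of 31.2% of the 40 channel genes in PFC libraries, 25% in striatum, 28.8% in hippocampus and 22.5% in hypothalamus. Over all protein-coding genes the medians were 16.9%, 11.4%, 9.83% and 12.9% in the same order. Single libraries ranged widely, between 2.5% and 42.5% of the channel genes in PFC, 5.0% and 42.5% in striatum, 5.0% and 47.5% in hippocampus and 2.5% and 37.5% in hypothalamus. The 32 partner genes listed for comparison, which encode anchors of the axon initial segment, fibroblast growth factors that bind sodium channels, release-site scaffolds, calcium channel regulators and the sodium leak channel complex, had medians of 50%, 37.5%, 39.1% and 37.5%.

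**Figure D1:**
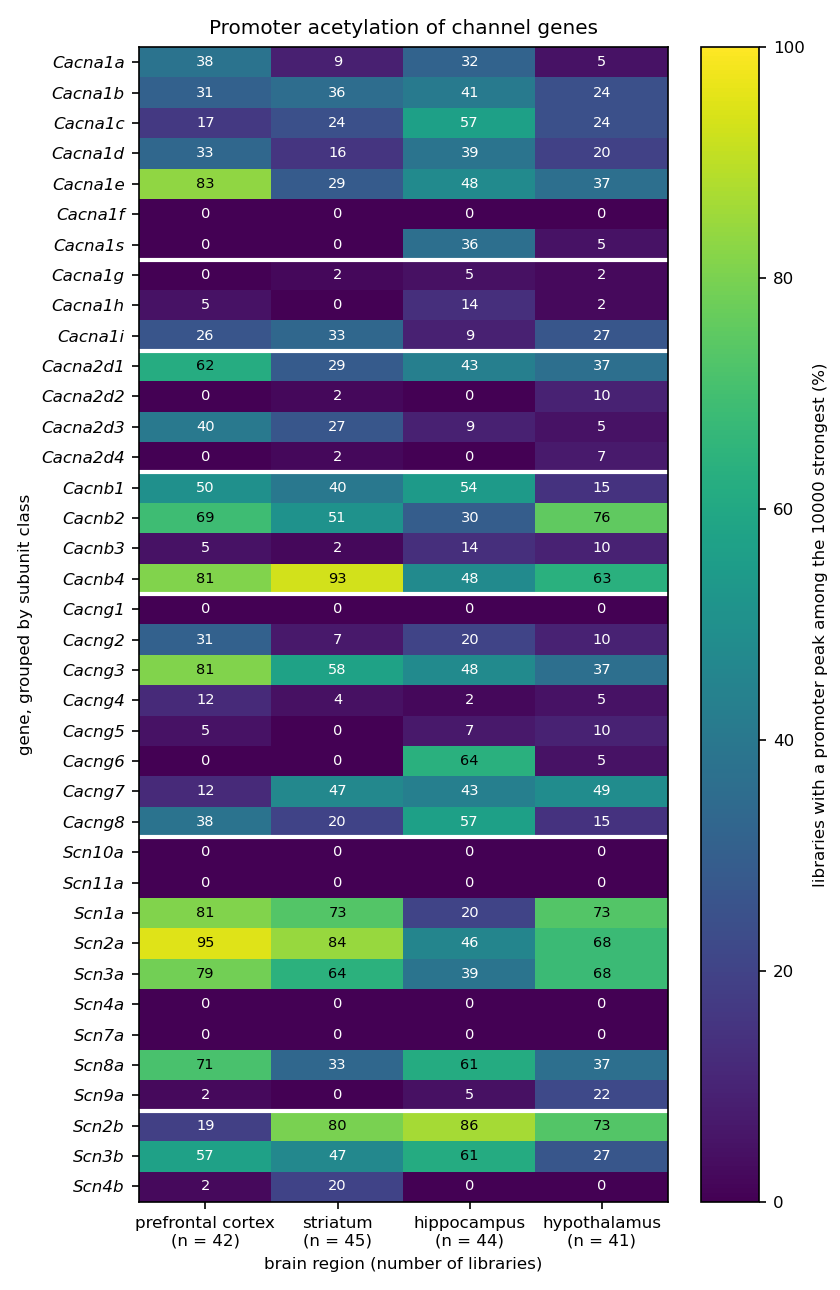
Share of libraries (percent, colour) whose top list of 10000 peaks holds a peak within 1 kb of a TSS, for the named channel genes (vertical axis, grouped by subunit class) in PFC, striatum, hippocampus and hypothalamus (horizontal axis, 42, 45, 44 and 41 libraries). Scn2a is the most widely marked, at 95.2% in PFC, and Cacng6 stands out in hippocampus at 63.6%.

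The sodium channel subunits of central neurons led the list. Scn2a, the pore of axon initial segments of many excitatory neurons, had a top-list promoter peak in 126 of 172 libraries (73.3%), with 95.2% in PFC, 84.4% in striatum, 45.5% in hippocampus and 68.3% in hypothalamus. Scn3a, a pore-forming subunit prominent in embryonic and neonatal brain, reached 107 libraries (62.2%), Scn1a, the main pore-forming subunit of many inhibitory interneurons, 106 (61.6%), and Scn8a, which supports repetitive firing, 87 (50.6%). Scn2b, a disulfide-linked beta subunit, was marked in 112 libraries (65.1%) and Scn3b in 83 (48.3%). Scn4b, another beta subunit, was marked in 20% of striatum and 2.38% of PFC libraries and in none of the others.

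Among calcium channel genes the beta subunit Cacnb4 was marked most often, in 123 of 172 libraries (71.5%). It was followed by Cacnb2, another beta subunit, and Cacng3, a TARP, in 96 libraries each (55.8%), and by Cacna1e, the R-type pore, in 84 (48.8%). Of the other high-voltage pores, Cacna1a, the P/Q-type channel of many presynaptic terminals, was marked in 38.1% of PFC, 8.89% of striatum, 31.8% of hippocampus and 4.88% of hypothalamus libraries. Cacna1b, the N-type channel, ranged between 24.4% and 40.9%, and the L-type genes Cacna1c and Cacna1d between 16.7% and 56.8% and between 15.6% and 38.6%. Of the low-voltage T-type genes, Cacna1g was marked in at most 4.55% of the libraries of a brain region and Cacna1h in at most 13.6%, whereas Cacna1i was marked in between 9.09% and 33.3%. Of the alpha2delta genes, Cacna2d1, the target of gabapentin, had shares of 61.9%, 28.9%, 43.2% and 36.6% in PFC, striatum, hippocampus and hypothalamus, and Cacna2d3 had 40.5%, 26.7%, 9.09% and 4.88%, whereas Cacna2d2 and Cacna2d4 stayed at or below 9.76%. Cacnb1 ranged between 14.6% and 54.5%, Cacnb3 between 2.22% and 13.6%, and the TARP genes Cacng2, Cacng4 and Cacng5 between 0% and 31.0%.

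For 6 genes no library had a top-list promoter peak: Cacna1f, Cacng1, Scn4a, Scn7a, Scn10a and Scn11a. With 0 of 172 libraries, a share of up to 1.74% is allowed if libraries are taken as independent. Replicate labels recur across brain regions, so some libraries may come from the same animal. Of the genes known mainly from muscle, Cacna1s and Cacng6 departed from this pattern in the hippocampus, as described next.

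The question which channel promoters differ between brain regions was addressed by ranking, within each library, the promoters of all 21670 genes by the highest −log10 p of a peak at the promoter, from 0 to 100. A promoter with no peak takes a rank shared by all such promoters of its library, which depends on the length of the peak list. A difference is therefore described as higher or lower only if it was called by limma (adjusted p under 0.05) in full lists, in top lists of 10000 peaks, and in top lists with unmarked promoters set to 0, a rule that 34 of the 40 channel genes could meet because 6 had too few peaks. Differences are in percentile points of rank with their standard error (SE), and the adjusted p is that of full lists over all 21670 genes.

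**Figure D2:**
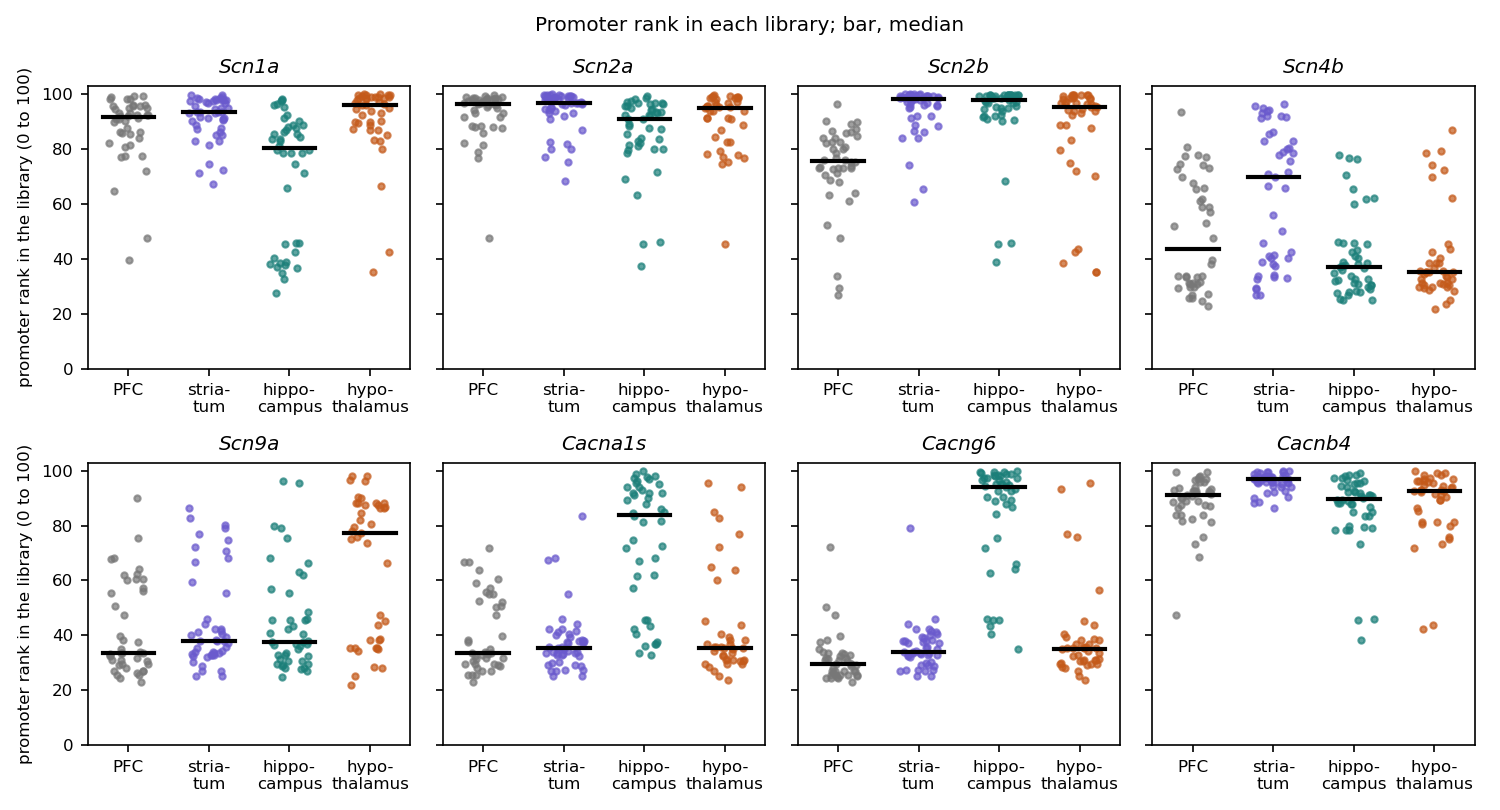
Promoter rank within the library (vertical axis, 0 to 100) of 8 channel genes in PFC, striatum, hippocampus and hypothalamus. Each point is 1 library and each bar the median; Cacng6 has medians of 29.5, 34.0, 94.3 and 35.1 in that order, and Scn2b 75.7, 98.3, 97.7 and 95.3.

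Hippocampus and hypothalamus differed in 7 of the 34 channel promoters, against 1095 of 12687 genes (8.63%) by the same rule. In full lists alone 14 of 40 were called, against 14.9% of all genes. Cacng6, a gamma subunit known from skeletal muscle, had ranks with a lowest, median and highest value of 34.9, 94.3 and 99.9 in hippocampus, against 23.6, 35.1 and 95.5 in hypothalamus. A promoter peak of any height was present in 86.4% of hippocampus and 12.2% of hypothalamus libraries. The difference was 45.5 ± 3.40 points (SE, adjusted p = 2.05e-26). Cacna1s, the pore-forming subunit of the skeletal muscle calcium channel, had ranks of 32.8, 84.0 and 99.9 in hippocampus and a median of 35.3 in hypothalamus, with a difference of 30.7 ± 3.99 (adjusted p = 5.82e-11). Smaller differences were found for Cacnb1 (18.4 ± 3.91, adjusted p = 1.05e-04), Cacna1a (17.1 ± 4.31, adjusted p = 1.47e-03) and the TARP gene Cacng8 (9.71 ± 3.58, adjusted p = 0.0483, but −1.86 in SAL-LPS libraries alone). A pair of sodium channel genes ranked lower in hippocampus than in hypothalamus. Scn9a, known chiefly from sensory and sympathetic neurons, differed by −20.7 ± 4.37 points (adjusted p = 9.53e-05) and Scn1a by −20.2 ± 3.31 (adjusted p = 2.52e-07).

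The consensus list of the hippocampus held a region of 10505 bp over the Cacng6 promoter (chr7:3419498-3430002). Cacng6, a gene of 11.5 kb, lies next to Cacng8 and Cacng7 on chromosome 7, and the window of its promoter also holds the start of the lincRNA 3300002P13Rik at 750 bp, so the signal cannot be assigned to either gene alone. At Cacna1s, marking of the gene was not limited to hippocampus. A top-list peak lay in the gene in 36 of 44 hippocampus, 26 of 42 PFC, 20 of 45 striatum and 16 of 41 hypothalamus libraries. The consensus lists of hippocampus, striatum and hypothalamus each held a Cacna1s promoter region. The hippocampal one, of 8883 bp (chr1:136050346-136059228), spanned the start of the gene. The bases upstream of this start are shown because they lie inside that region. They are from RefSeq (GRCm38.p6), plus strand, chr1:136052561-136052749, written 5′ to 3′ in lower case, with any match to a searched motif in capitals.
Cacna1s: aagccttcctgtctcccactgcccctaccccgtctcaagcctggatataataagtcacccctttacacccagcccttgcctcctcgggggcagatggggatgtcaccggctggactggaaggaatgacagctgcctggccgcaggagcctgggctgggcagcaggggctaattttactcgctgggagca
The motifs searched on both strands were GGGCGG (the GC box), TATAAA (the TATA box), TGACG (part of the cAMP response element) and GGACAGC (part of the RE1 element bound by the repressor REST), and this stretch of 189 bases held none of them. The whole window of 250 bases, whose remaining bases are annotated as exonic and are not printed, held 1 match to GGGCGG. Over 20054 promoter windows of 250 bases they occurred in 44.3%, 11.2%, 20.7% and 5.63%. Of 41 windows of 30 channel genes with an entry, 15 held GGGCGG, 2 TATAAA, 6 TGACG and 1 GGACAGC.

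Striatum and hippocampus differed in 8 of 34 channel promoters, against 4.97% of 12687 genes (12 of 40 in full lists, against 11.5%). Scn4b, which assists resurgent sodium current in Purkinje cells, had ranks of 26.9, 69.9 and 96.4 in striatum and 24.9, 36.9 and 77.9 in hippocampus, a difference of 24.7 ± 4.10 (adjusted p = 3.81e-07). A peak of any height was present in 60% of striatum and 18.2% of hippocampus libraries, and the groups overlapped. Scn1a was higher in striatum by 21.7 ± 3.25 (adjusted p = 1.62e-08), with median ranks of 93.4 in striatum and 80.5 in hippocampus. Cacnb4 (9.02 ± 2.43, adjusted p = 4.13e-03) and Scn2a (9.00 ± 2.47, adjusted p = 5.07e-03) were also higher in striatum, where Cacnb4 had ranks of 86.4, 97.1 and 100. Cacng6 and Cacna1s were lower in striatum by −48.4 ± 3.34 and −36.5 ± 3.92 points (adjusted p = 1.43e-29 and 4.42e-15), Cacng8 by −14.1 ± 3.52 (adjusted p = 1.65e-03, but 3.92 in SAL-LPS libraries alone) and Cacna1c by −11.8 ± 3.67 (adjusted p = 0.0175).

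Striatum and hypothalamus differed in 3 of 34 channel promoters, against 4.3% of all 12687 genes (8 of 40 in full lists, against 9.41%). Scn4b was higher in striatum by 24.7 ± 4.17 points (adjusted p = 1.54e-06) and Cacnb4 by 7.18 ± 2.47 (adjusted p = 0.0445). Scn9a was lower in striatum by −19.4 ± 4.37 (adjusted p = 5.09e-04). Its promoter ranks in hypothalamus were 21.8, 77.2 and 98.1, with a top-list peak in 22.0% of libraries, against a median of 37.9 and 0% in striatum. In the full set of comparisons Scn9a was thus higher in hypothalamus than in each other brain region. The rank takes the strongest peak near either of 2 annotated Scn9a start sites. The hypothalamic consensus list held 1 Scn9a region, which was intronic, and 0 at its promoter. The 250 bases before the RefSeq start (GRCm38.p6, chr2:66634963-66635212, minus strand) are shown as an annotated promoter of Scn9a. Their GC content is 54.4% and none of the searched motifs was found.
Scn9a: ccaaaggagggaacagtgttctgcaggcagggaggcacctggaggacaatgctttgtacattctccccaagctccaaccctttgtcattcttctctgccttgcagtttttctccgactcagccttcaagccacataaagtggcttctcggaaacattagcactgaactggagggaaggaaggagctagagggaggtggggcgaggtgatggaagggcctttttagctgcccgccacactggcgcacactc

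In the comparisons with PFC a large part of all genes differed, and kit and brain region cannot be told apart. Channel promoters were called about as often as other genes: 8 of 34 against 21.3% for PFC and hippocampus, 9 of 34 against 24.5% for PFC and hypothalamus, and 6 of 34 against 13.7% for PFC and striatum. In full lists alone 20, 24 and 15 of 40 were called, against 59.4%, 62.9% and 58.8% of all genes. Scn2b was lower in PFC than in each other brain region, by −18.1 ± 3.11 against hippocampus (adjusted p = 6.87e-07), −21.4 ± 3.09 against striatum (adjusted p = 1.78e-08) and −12.8 ± 3.17 against hypothalamus (adjusted p = 6.02e-04). Its PFC ranks were 26.9, 75.7 and 96.5, against 60.7, 98.3 and 100 in striatum. Cacng7, a TARP, was likewise lower in PFC than in each other brain region, by between −17.5 and −24.0 points, although its difference from hypothalamus was 2.73 in SAL-LPS libraries alone. Relative to hippocampus, PFC was higher at Scn1a (17.6 ± 3.29), Scn3a (10.2 ± 3.47) and Scn2a (7.54 ± 2.5), and lower at Cacng6 (−52.9 ± 3.39), Cacna1s (−33.9 ± 3.97) and Cacna1c (−18.6 ± 3.72). Relative to hypothalamus, PFC was higher at Cacna2d3 (18.6 ± 4.53), Cacng3 (17.1 ± 3.82), Cacna1a (16.9 ± 4.37), Cacnb1 (13.1 ± 3.95), Cacna1e (11.4 ± 3.69) and Scn8a (9.09 ± 3.72, but −2.5 in MOR-SAL libraries alone), and lower at Scn9a (−23.0 ± 4.42). Relative to striatum, PFC was higher at Cacna1a (10.6 ± 4.26, but −2.07 in MOR-LPS libraries alone), Cacna2d1 (10.4 ± 4.19) and Scn8a (9.38 ± 3.63, but −4.06 in SAL-SAL libraries alone) and lower at Scn4b (−14.7 ± 4.12). Cacna2d4 and Scn7a differed in full and equal lists only, by −16.7 and −14.7 points between PFC and hypothalamus, and Cacna2d4 by −11.6 points between PFC and striatum, and were not called with unmarked promoters at 0.

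Of 29 partner genes that could meet the rule, 3 were called between hippocampus and hypothalamus, 1 between striatum and hippocampus and 1 between striatum and hypothalamus. In the comparisons with PFC 6 were called against hippocampus, 6 against hypothalamus and 4 against striatum.

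Promoter rank across the 172 libraries was most like that of Scn4b at Gm34302 (Spearman 0.631), Nexn (0.615) and Adora2a (0.614), an adenosine receptor of striatal neurons. For Cacna2d1 the closest genes were Rprml (0.402), Inhbe (0.384) and Chst1 (0.379). Libraries share list length and brain region, so these values describe likeness over libraries and nothing more.

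Several channel genes have more than 1 start site, and acetylation was often limited to 1 of them. Start sites of a gene within 2 kb of each other were counted as 1 site here and numbered from the 5′ end.

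**Figure D3:**
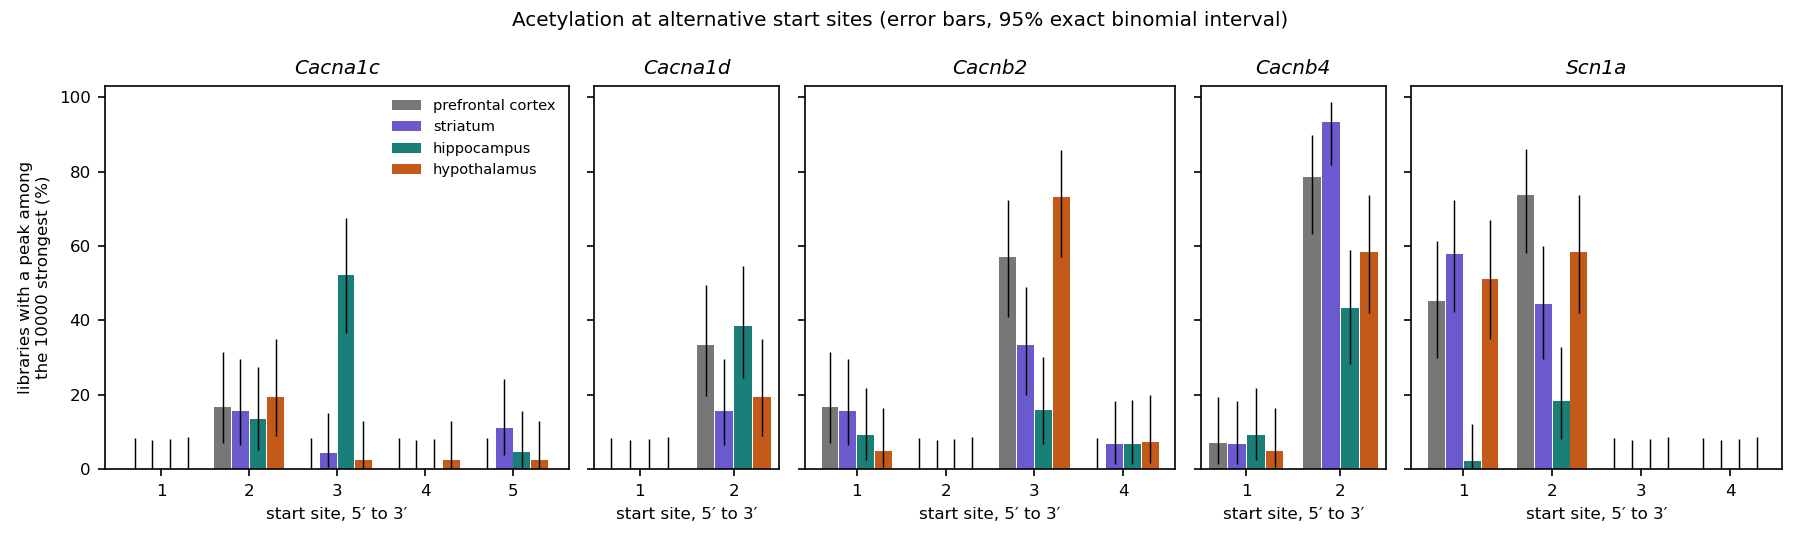
Share of libraries (percent, vertical axis) whose top list has a peak up to 1 kb from each start site of Cacna1c, Cacna1d, Cacnb2, Cacnb4 and Scn1a, numbered from the 5′ end, in PFC, striatum, hippocampus and hypothalamus. Bars are shares and lines their exact 95% binomial intervals; site 3 of Cacna1c reaches 52.3% in hippocampus and at most 4.44% elsewhere.

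Cacna1c, the L-type pore of most central neurons, spans 609 kb on the minus strand of chromosome 6. Its most 5′ site had no top-list peak in any brain region. Its second site (chr6:119107975-119108573) was marked in 16.7% of PFC, 15.6% of striatum, 13.6% of hippocampus and 19.5% of hypothalamus libraries. Site 3 (position 119080007) was a hippocampal one: 52.3% of hippocampus libraries (95% exact Clopper-Pearson interval 36.7 to 67.5, for counting error only) had a top-list peak there, against 2.44% in hypothalamus, 4.44% in striatum and 0% in PFC. With any peak counted, the shares were 93.2% in hippocampus, 51.2% in hypothalamus, 35.6% in striatum and 35.7% in PFC, so the site was not silent elsewhere. In the hippocampal consensus list it lay in the widest region of any Cacna1c interval, 25299 bp at chr6:119061755-119087053.

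Cacna1d, the L-type pore that opens at more negative voltages, spans 452 kb on chromosome 14. Its first site had no top-list peak in any of the 172 libraries, while the second was marked in 33.3% of PFC, 15.6% of striatum, 38.6% of hippocampus and 19.5% of hypothalamus libraries. The bases before the RefSeq start at each site are shown, for an unmarked and a marked site of the same gene. Peaks were counted around GENCODE starts. The nearest of these lies 0 bp from the RefSeq start at site 1 and 477 bp from that at site 2. Both stretches are on the minus strand (RefSeq, GRCm38.p6), at chr14:30491157-30491406 for site 1 and chr14:30353487-30353736 for site 2.
Cacna1d site 1: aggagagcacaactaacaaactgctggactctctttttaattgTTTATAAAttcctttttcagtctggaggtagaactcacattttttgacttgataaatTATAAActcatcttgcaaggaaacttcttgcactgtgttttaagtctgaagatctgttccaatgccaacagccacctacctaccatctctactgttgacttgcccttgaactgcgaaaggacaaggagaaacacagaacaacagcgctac
Cacna1d site 2: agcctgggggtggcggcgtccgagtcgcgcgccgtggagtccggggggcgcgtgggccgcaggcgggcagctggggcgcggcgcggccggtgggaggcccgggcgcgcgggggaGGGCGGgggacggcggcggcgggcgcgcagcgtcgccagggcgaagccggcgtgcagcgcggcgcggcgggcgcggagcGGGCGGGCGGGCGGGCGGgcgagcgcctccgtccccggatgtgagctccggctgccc
Capitals mark motif matches on either strand. Site 1 had a GC content of 39.6% and 3 matches to TATAAA, of which those on opposite strands overlap, and no GC box. Site 2 had a GC content of 86.4% and 5 matches to GGGCGG. A match describes letters only.

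Cacnb4 and Cacna1e were likewise marked mainly at 1 site, whereas Cacnb2 varied by brain region and Scn1a was marked at its first and second sites. At Cacnb4, site 2 (chr2:52558560-52558567) was marked in 78.6% of PFC, 93.3% of striatum, 43.2% of hippocampus and 58.5% of hypothalamus libraries, and site 1 in at most 9.09%. At Cacnb2, site 3 (chr2:14873669-14874421) was marked in 57.1%, 33.3%, 15.9% and 73.2% of the libraries in the same order, and the first site in 4.88% to 16.7%. At Cacna1e only the second of 3 sites was ever marked. Scn1a was marked at its first and second sites in PFC (45.2% and 73.8%), striatum (57.8% and 44.4%) and hypothalamus (51.2% and 58.5%), and less in hippocampus (2.27% and 18.2%), whereas sites 3 and 4 were at 0% in all. At Scn8a, a site inside the gene (chr15:100955501-100957084) was marked in 20.5% of hippocampus libraries and in none of the other libraries.

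The first Scn1a site is given with its sequence because its promoter region also changed with treatment, as described below. The stretch of 247 bases upstream (RefSeq, GRCm38.p6, chr2:66440841-66441087, minus strand) had a GC content of 47.4% and none of the searched motifs. The antisense gene Gm13629 starts 40 bp away, and these data carry no strand, so both share the signal.
Scn1a: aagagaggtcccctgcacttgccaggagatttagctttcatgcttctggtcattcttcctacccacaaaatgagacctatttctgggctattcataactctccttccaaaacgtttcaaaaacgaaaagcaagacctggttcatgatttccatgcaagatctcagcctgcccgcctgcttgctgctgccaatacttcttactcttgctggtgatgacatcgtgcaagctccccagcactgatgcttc

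Most channel regions lay outside promoters. Of the member regions, 86 of 153 were intronic in PFC, 367 of 553 in striatum, 67 of 147 in hippocampus and 61 of 105 in hypothalamus, while 17.0%, 10.3%, 21.1% and 24.8% touched a promoter, against 31.4%, 20.3%, 25.1% and 33.4% of all regions. The channel genes are long, and the lists differ in length between brain regions, so numbers of regions were not compared. In striatum the largest numbers belonged to Cacna2d3 with 112 regions over a gene of 817 kb, Cacna1c with 75 and Cacna1e with 36. Scn4a had no region in any list. In the top lists, peaks covered a median of 12.7 kb of the Cacna2d3 gene in striatum libraries, 7.5 kb in PFC, 2.73 kb in hippocampus and 2.6 kb in hypothalamus. For Cacna1c the medians were 11.1 kb in striatum, 4.99 kb in PFC, 13.2 kb in hippocampus and 4.91 kb in hypothalamus, and for Cacna1e 3.96, 8.13, 7.76 and 3.01 kb. At Scn4b, a striatal consensus region of 16914 bp (chr9:45140074-45156987) covered most of the gene. Coverage of the Scn4b gene by top-list peaks was not particular to striatum. It averaged 1.18 kb in striatum and 1.23 kb in PFC libraries (medians 0.329 and 0.144 kb). A top-list peak lay in the gene in 24 of 45 striatum and 21 of 42 PFC libraries.

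Whether perinatal morphine and adult LPS changed acetylation at channel genes was asked separately in each brain region. Every consensus region was ranked within its library from 0 to 100 by the highest −log10 p of a peak in it, and groups were compared by limma with sex as a term, over all regions of the brain region. "Rose" and "fell" are used of regions called both in full lists and in lists of equal length, whereas "ranked higher" or "ranked lower" of those called in full lists alone.

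In hypothalamus, 84 of 105 channel regions had a negative difference between MOR-LPS and SAL-LPS mice (80.0%), with a median of −8.91 points, against 6993 of all 13788 regions (50.7%) and a median of −0.344. In lists of equal length 71 were negative (67.6%) with a median of −6.51, against 50.3% and −0.128 over all regions. MOR-LPS lists were longer, with a median of 70450 peaks against 48152 in SAL-LPS libraries. These signs and medians are a description, most of the regions did not pass the test, and regions of 1 library are not independent. Single regions passed the test seldom: 4 of 105 were called, 1 of them higher and 3 lower, against 4.31% of all regions (2.63% higher and 1.68% lower). The count is near the background share. Negative differences were spread over many genes. All 7 regions of Cacna1b, 7 of Cacna1e, 5 of Cacna1g, 5 of Cacna2d3 and 3 of Scn3a had negative differences, as did 14 of 19 at Cacna1c and 5 of 6 at Cacnb2, while 2 of 3 at Scn8a and the single regions of Cacng7, Cacng8 and Cacna1s had positive ones. Regions of the 32 partner genes had a median of −3.09 points with 94 of 165 negative.

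**Figure D4:**
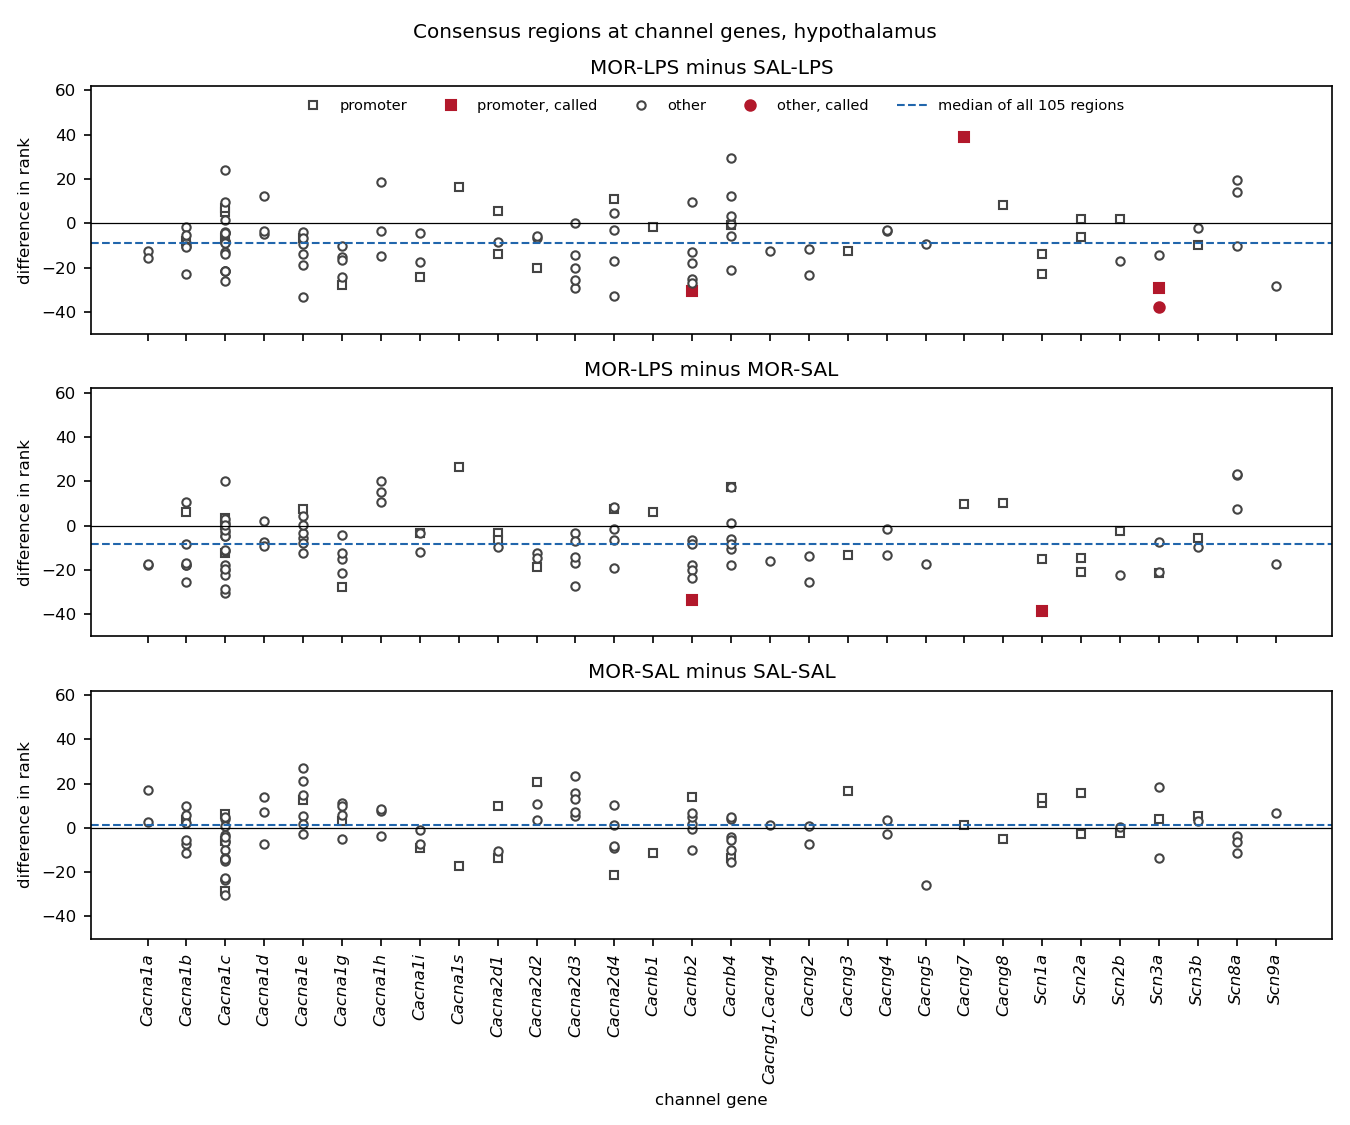
Difference in rank (percentile points, vertical axis) of hypothalamic channel regions, by named gene (horizontal axis), for MOR-LPS minus SAL-LPS, MOR-LPS minus MOR-SAL and MOR-SAL minus SAL-SAL. Each point is 1 region (squares at promoters, circles elsewhere), filled red points are called, and dashed lines mark the medians of all 105 channel regions (−8.91, −8.42 and 1.07).

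Cacnb2 fell in MOR-LPS mice. Its region covers the internal start site 3 (chr2:14872474-14878082, 5609 bp), next to the start of the pseudogene Gm10849. The ranks had a lowest, median and highest value of 13.3, 49.3 and 87.5 in MOR-LPS libraries (mean 53.3 ± 25.6, SD, n = 10), against 53.1, 86.2 and 99.7 in SAL-LPS libraries (83.7 ± 14.1, n = 11). The groups overlapped, with 8 of 10 MOR-LPS libraries in the direction of the difference, and MOR-SAL and SAL-SAL libraries had medians of 93.4 and 94.4. The difference was −30.5 ± 8.65 points (SE, adjusted p = 0.026), and −33.7 in lists of equal length (adjusted p = 0.0391), where 1.27% of all regions and 1 of the 105 were called. Over 12 alternatives its adjusted p ranged from 0.00857 to 0.118. The call was lost in 4 of 41 refits that left out 1 library each (MOR-LPS female 16-4, male 14-4 and male 6-0, and SAL-LPS female 9-1).

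**Figure D5:**
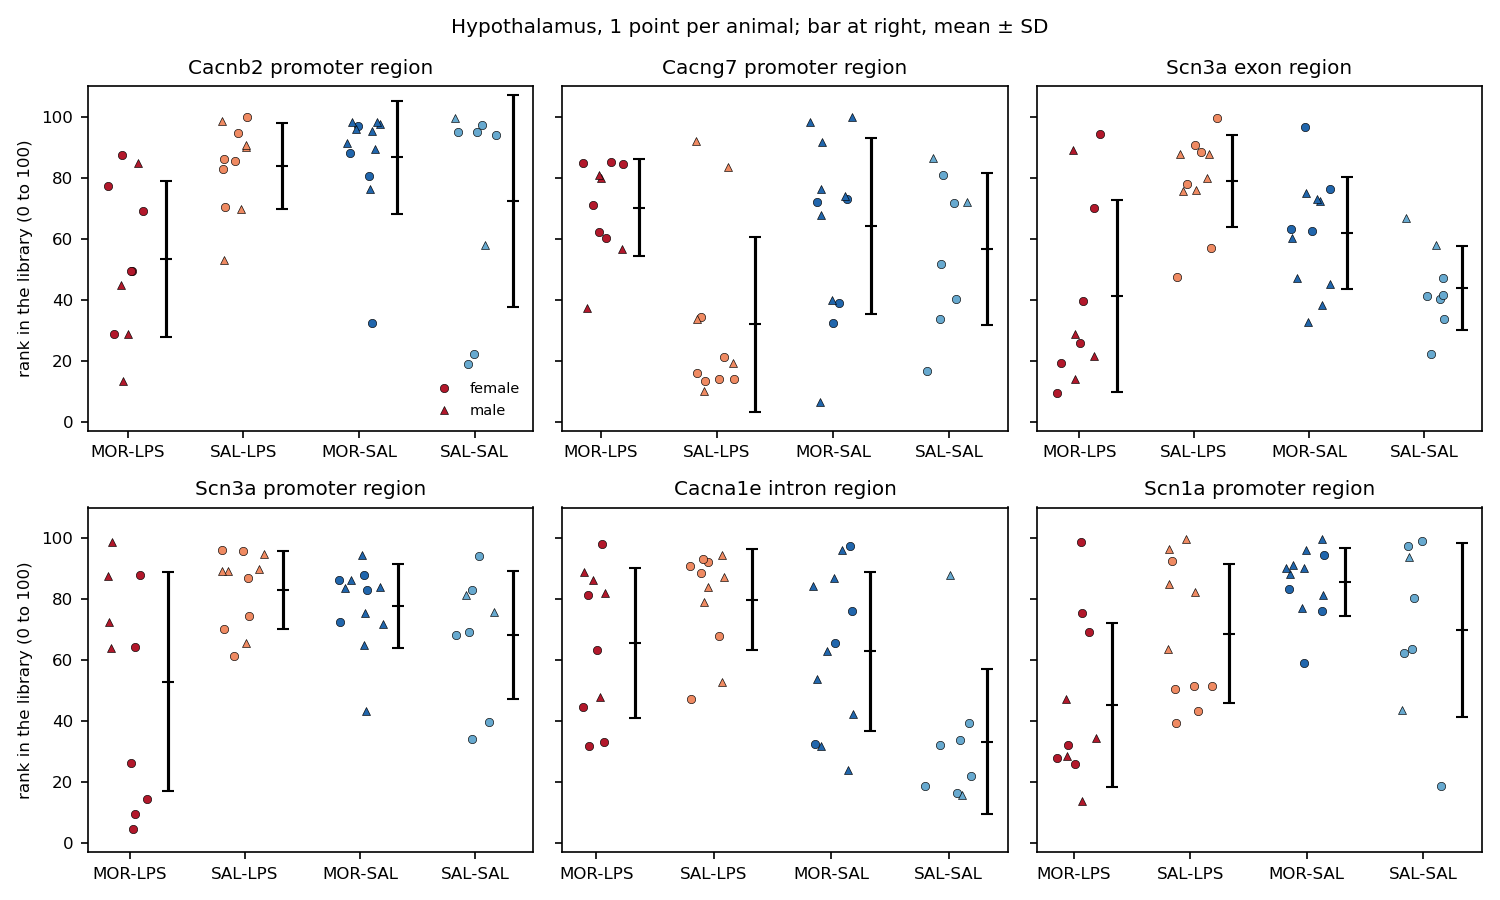
Rank within the library (vertical axis, 0 to 100) of 6 hypothalamic channel regions in MOR-LPS, SAL-LPS, MOR-SAL and SAL-SAL mice. Circles are female and triangles male libraries, and bars give the mean and SD; at the Cacnb2 promoter the MOR-LPS mean is 53.3 and the SAL-LPS mean 83.7.

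The other called regions were lost in lists of equal length. At Cacng7, the promoter (chr7:3330934-3332742) ranked higher in MOR-LPS mice, with 37.2, 75.3 and 85.0 as lowest, median and highest rank, against 9.95, 19.1 and 91.9 in SAL-LPS mice, of which 5 of 11 had a peak. The difference was 39.1 ± 11.2 (adjusted p = 0.0273, and 0.0878 in lists of equal length), and it was lost without MOR-LPS female 15-1 or 15-3. At Scn3a, an exonic region (chr2:65470362-65473727) had ranks of 9.45, 27.2 and 94.2 in MOR-LPS, against 47.4, 80.0 and 99.4 in SAL-LPS libraries, with a difference of −37.8 ± 11.0 (adjusted p = 0.0294, and 0.0694 in lists of equal length). The Scn3a promoter (chr2:65563770-65567609) had ranks of 4.69, 64.1 and 98.7 against 61.3, 89.1 and 96.1, a difference of −29.3 ± 9.27 (adjusted p = 0.0454, and 0.134 in lists of equal length). Both Scn3a regions ranked lower, and their calls were lost in 6 and 13 of 41 refits. At the promoter the lowest ranks were those of females, from 4.69 to 87.9 in MOR-LPS against 61.3 to 96.1 in SAL-LPS libraries. Male ranks there were 63.9 to 98.7 against 65.5 to 94.8. At the exon, male ranks were 13.9 to 88.9 in MOR-LPS against 75.5 to 87.8 in SAL-LPS libraries. A difference between the sexes was not tested. Among the partner genes 2 regions were called, at Ank2 (−31.7 ± 9.45, adjusted p = 0.0325), which encodes an ankyrin, and at Nedd4l (30.6 ± 9.84, adjusted p = 0.0484), a ubiquitin ligase of sodium channels. Both were lost in lists of equal length (adjusted p = 0.128 and 0.141).

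Between MOR-LPS and MOR-SAL mice the same brain region had 2 of 105 channel regions called, both lower, against 3.84% of all regions (1.51% lower). The Scn1a promoter (chr2:66438876-66443203), whose upstream sequence is printed above, fell. Its ranks were 13.9, 33.3 and 98.6 in MOR-LPS libraries, against 59.2, 89.2 and 99.6 in MOR-SAL libraries. All MOR-SAL libraries stood above the median MOR-LPS library, and SAL-LPS and SAL-SAL libraries had medians of 63.8 and 71.9. The difference was −38.7 ± 9.80 (adjusted p = 0.0104, and −41.5 with adjusted p = 0.0229 in lists of equal length), and it was called in each of 41 refits without 1 library, but not with the share of thalamus markers as a term (−32.7, adjusted p = 0.126), a share that averaged 4.00% in MOR-LPS and 21.7% in MOR-SAL libraries. Cacnb2 fell here too, by −33.4 ± 8.65 (adjusted p = 0.0136, and 0.0174 in lists of equal length). Lists of equal length called 3 of 105, against 1.75% of all regions. The median difference of the channel regions was −8.42, with 78 of 105 negative, against −0.291 over all regions, and −6.65 with 76 negative in lists of equal length; MOR-LPS libraries are common to both comparisons. An intronic Cacna1c region (chr6:118862698-118875338) had the next smallest p and missed the threshold (−30.4 ± 10.2, adjusted p = 0.061). Of the partner genes, a region of Ank3, the anchor of sodium channels at the initial segment, ranked higher (30.8 ± 9.78, adjusted p = 0.0473) and one of Fgf12 lower (−35.9 ± 11.2, adjusted p = 0.0437), and neither was called in lists of equal length (adjusted p = 0.0996 and 0.0749).

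The interaction, that is the difference MOR-LPS minus MOR-SAL less the difference SAL-LPS minus SAL-SAL, called 2 of 105 channel regions, both negative, against 1.86% of all regions (0.82% negative). They were the Cacnb2 promoter (−44.6 ± 12.9, adjusted p = 0.0441) and the Scn3a exon (−56.3 ± 16.4, adjusted p = 0.0445). Neither was called in lists of equal length (adjusted p = 0.0703 and 0.0763), where 0.0508% of all regions were, and their calls remained in 21 and 17 of 41 refits without 1 library. An intronic Cacna2d3 region followed (−52.4 ± 16.0, adjusted p = 0.0512).

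LPS alone, in mice without morphine, was followed by 1 called channel region in hypothalamus. An intronic Cacna1e region (chr1:154497531-154505277) ranked higher in SAL-LPS mice, at 47.3, 87.2 and 94.4, against 15.7, 27.2 and 88.0 in SAL-SAL mice. The difference was 45.2 ± 11.4 (adjusted p = 0.0353). It was the only one of 105, against 0.305% of all regions (0.116% higher), and none was called in lists of equal length, where 0.116% of all regions were (adjusted p = 0.144 for this region). The call was lost in 13 of 41 refits. Another Cacna1e intron (41.7 ± 12.0, adjusted p = 0.0926) and a region upstream of Cacng5 (−34.1 ± 10.6, adjusted p = 0.123) had the next smallest p.

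Morphine alone gave no called channel region in hypothalamus. Between MOR-SAL and SAL-SAL mice limma called 0 of 105 channel regions and 0.0% of all regions, with 7 and 1109 at an unadjusted p under 0.05. The smallest p belonged to a region upstream of Cacna1c (−30.4 ± 11.7, adjusted p = 0.446), a region upstream of Cacng5 (−26.0 ± 10.7, adjusted p = 0.483) and Cacna1c site 3 (−28.4 ± 12.2, adjusted p = 0.516). The median over the channel regions was 1.07 points, and −0.438 in lists of equal length.

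Marker content of the hypothalamus libraries moved with the groups. The share of 9 neuron markers with a top-list promoter peak averaged 43.3% in MOR-LPS, 56.6% in SAL-LPS, 63.0% in MOR-SAL and 47.2% in SAL-SAL libraries, with a range of 11.1% to 88.9% among MOR-LPS libraries and 11.1% to 100% among SAL-LPS libraries. The share of 5 thalamus markers averaged 4.00%, 10.9%, 21.7% and 35.0% in the same order, oligodendrocyte markers 8.89%, 5.05%, 4.63% and 9.72%, and microglia and endothelial markers were at 0 in each library. With the neuron marker share as a term, limma called 0 of 105 channel regions between MOR-LPS and SAL-LPS mice (22 at an unadjusted p under 0.05), and the median was −7.21; Cacnb2 differed by −24.0 (adjusted p = 0.118). Between MOR-LPS and MOR-SAL mice, Scn1a differed by −36.8 (adjusted p = 0.0496) and Cacnb2 by −25 (adjusted p = 0.128) with that term. With the thalamus marker share as a term, Cacnb2 differed by −27.3 between MOR-LPS and SAL-LPS mice (adjusted p = 0.0546), and between MOR-LPS and MOR-SAL mice no region of any gene was called, with Scn1a at −32.7 (adjusted p = 0.126) and 8 channel regions at an unadjusted p under 0.05. How far the calls depend on the makeup of the nuclei was not tested beyond these terms. Which cells the thalamus marker share stands for, resting mainly on Slc17a6 and Tcf7l2, was not tested either.

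In striatum 4 of 553 channel regions were called between MOR-LPS and SAL-LPS mice, all lower, against 2.32% of all regions (0.365% lower). They were introns of Cacna1e (chr1:154522600-154523708, −24.0 ± 6.05, adjusted p = 0.0312, and chr1:154590760-154593226, −29.3 ± 8.17, adjusted p = 0.0374), Cacna1c (chr6:118988310-118990846, −34.2 ± 9.10, adjusted p = 0.0345) and Cacna1i (chr15:80363461-80364944, −23.8 ± 6.57, adjusted p = 0.0361). At the Cacna1c intron the ranks were 15.7, 42.2 and 99.7 in MOR-LPS, against 62.4, 82.6 and 97.5 in SAL-LPS libraries, so the groups overlapped through a few high MOR-LPS libraries. None of the 4 was called in lists of equal length, where 0.00333% of all regions were and 33 channel regions had an unadjusted p under 0.05. The median difference was −5.68 with 435 of 553 negative, against −1.47 and 33080 of 60013 over all regions, and −0.0397 for both in lists of equal length.

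Between MOR-LPS and MOR-SAL mice, 2 introns of Cacna1c ranked lower in striatum, of 553 channel regions, against 0.253% of all regions (0.133% lower). At the first (chr6:119000121-119001707) no MOR-LPS library of 15 had a peak, and the ranks were 13.3, 24.1 and 42.2, against 33.3, 63.2 and 93.0 in MOR-SAL libraries, of which 5 of 7 had one. The MOR-LPS ranks are thus those shared by all unmarked regions of a library, which depend on list length. Striatum lists had a median of 65569 peaks in MOR-LPS and 46110 in MOR-SAL libraries. The difference at this intron was −40.3 ± 7.99 (adjusted p = 0.00566). At the second (chr6:119015318-119017320) it was −30 ± 7.09 (adjusted p = 0.0292). Neither was called in lists of equal length (adjusted p = 0.11 and 0.992), where 0.005% of all regions were. The MOR-SAL group holds 7 libraries.

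Oligodendrocyte markers were unevenly spread in striatum. Their share averaged 31.9% in MOR-LPS, 8.55% in SAL-LPS, 6.35% in MOR-SAL and 11.1% in SAL-SAL libraries, and it was 30% or more in 5 MOR-LPS, 1 SAL-LPS and 1 SAL-SAL library. Without those libraries no striatal channel region was called, with adjusted p between 0.729 and 0.764 for the 4 regions of MOR-LPS against SAL-LPS and 0.166 and 0.184 for the Cacna1c introns of MOR-LPS against MOR-SAL. In the other comparisons limma called no channel region in striatum: 0 of 553 between MOR-SAL and SAL-SAL (0.00667% of all regions, 39 channel regions at an unadjusted p under 0.05), 0 between SAL-LPS and SAL-SAL (0.0%, 48) and 0 in the interaction (0.0167%, 68). The largest departures there included the same Cacna1c intron, higher in MOR-SAL than in SAL-SAL by 30.2 ± 8.58 (adjusted p = 0.397), and a Cacna1e intron in SAL-LPS against SAL-SAL (24.0 ± 6.56, adjusted p = 0.964). Partner regions of smallest p were at Calm3 (20.6 ± 4.97, adjusted p = 0.0307), a calmodulin gene, and Fgf14 (−28.9 ± 8.01, adjusted p = 0.0363) between MOR-LPS and SAL-LPS, and at Fgf14 (−46.1 ± 8.63, adjusted p = 0.00464) and Rims1 (−40.9 ± 7.88, adjusted p = 0.00473), a release-site scaffold, between MOR-LPS and MOR-SAL. The same Fgf14 region was called in the interaction (−61.8 ± 11.8, adjusted p = 0.0203). None of these partner calls remained in lists of equal length, with adjusted p of 0.114 at Calm3 and 0.575 at Fgf14 between MOR-LPS and SAL-LPS, 0.692 at Fgf14 and 0.356 at Rims1 between MOR-LPS and MOR-SAL, and 0.727 at Fgf14 in the interaction.

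In PFC limma called 0 of 153 channel regions in each of the 5 comparisons, as it did 0.0% of all regions. At an unadjusted p under 0.05 there were 10 channel regions for MOR-LPS against SAL-LPS, 11 for MOR-LPS against MOR-SAL, 2 for MOR-SAL against SAL-SAL, 11 for SAL-LPS against SAL-SAL and 7 for the interaction. Cacna2d1 had the smallest p, at an intron (chr5:16000499-16003188) with ranks of 1.75, 9.84 and 17.9 in MOR-LPS libraries, against 8.83, 38.1 and 78.1 in MOR-SAL libraries. The difference was −24.7 ± 6.65 (adjusted p = 0.244), and the MOR-LPS libraries were low as a group but overlapped the others. A Cacna2d3 intron differed by −25.1 ± 8.55 between MOR-LPS and SAL-LPS (adjusted p = 0.184), a Cacna1c intron by −30.5 ± 10.2 (adjusted p = 0.54) and the Scn1a promoter by 27.4 ± 9.75 (adjusted p = 0.586) between SAL-LPS and SAL-SAL. The median over the channel regions was −3.60 for MOR-LPS against SAL-LPS, with 108 of 153 negative, and −0.475 over all regions. In lists of equal length these were −1.89, 91 and 0.75.

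In hippocampus limma likewise called 0 of 147 channel regions in each comparison. All regions together gave 0.00617% for MOR-SAL against SAL-SAL and for the interaction, that is 1 region each, and 0.0% otherwise. At an unadjusted p under 0.05 there were 5 channel regions for MOR-LPS against SAL-LPS, 7 for MOR-LPS against MOR-SAL, 5 for MOR-SAL against SAL-SAL, 10 for SAL-LPS against SAL-SAL and 10 for the interaction. A region downstream of Cacna1i, a T-type pore (chr15:80417602-80420166), had the smallest p in 4 of the 5 comparisons. Its ranks were 7.74, 19.7 and 49.7 in MOR-LPS libraries, against 7.15, 57.3 and 91.0 in SAL-LPS libraries. In MOR-SAL libraries they were 7.35, 65.2 and 92.7, against 7.21, 22.2 and 86.7 in SAL-SAL libraries. The MOR-LPS and SAL-SAL groups were thus low and the other two high. Its differences were −30.8 ± 10.3 for MOR-LPS against SAL-LPS (adjusted p = 0.559), 31.1 ± 10.2 for MOR-SAL against SAL-SAL (adjusted p = 0.653) and −61.9 ± 14.5 for the interaction (adjusted p = 0.275). These comparisons share libraries, and none passed the threshold.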

How the data were processed

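H3K27ac was profiled by the authors in NeuN+ nuclei of 4 brain regions, with 1 library per animal and brain region. According to the processing notes, reads were trimmed with Trim Galore 0.6.7, aligned to mm10 with Bowtie2 2.4.5 and handled with SAMtools 1.15.1, peaks were called per library with MACS2 2.2.7.1, and consensus regions of each brain region were made with DiffBind 3.10.1. The deposited peak lists give, as the authors' MACS2 computed them, the −log10 p and −log10 q of each peak, its fold enrichment as a ratio over the local background, and a whole-number score derived from the q-value. The deposited files hold no read counts, so ranks were tested and no test of counts was run. Columns of fold enrichment and score were not used in any test.

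Of 174 lists, 172 were used: in hippocampus, SAL-LPS male libraries 1-2 and 5-2 were identical and counted once, and in PFC the SAL-SAL female library 9-2, with 4371 peaks, was left out for holding fewer than 10000. The PFC library labelled MOR-LPS female 12-2 holds peaks named for 12-0, and its label was used. Input libraries were not analysed here.

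Each consensus region, and each promoter (within 1 kb of a TSS of a protein-coding transcript), was given the −log10 p of its strongest overlapping peak (1 bp or more), or 0 where none overlapped. These values were converted to ranks between 0 and 100 in each library. Ranks were fitted with limma 3.58.1 (R 4.3.3) with a mean-variance trend: group and sex as terms per brain region for consensus regions, and brain region, treatment and sex for promoters. P-values are two-sided and were adjusted by the Benjamini-Hochberg method over all regions or all genes. Fits were repeated with lists of equal length (11306 peaks in PFC, 10811 in striatum, 13021 in hippocampus, 20170 in hypothalamus), stricter peaks (−log10 q of at least 3), another overlap or window, a term for the number of peaks, no term for sex, replicate blocks, a filter on low values and single libraries left out. Unmarked features at 0, marker shares and the style of peak names as terms, and the removal of libraries of high oligodendrocyte share were chosen after seeing the data. The fits were also run on ranks with libraries reassigned to groups at random and known shifts added. Random reassignment removes any link between group and list length, so those runs cannot show how such a link affects the calls.

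The channel genes, the partner and marker lists and the tests were chosen with earlier results of these data known. Of the 40 genes, 2 entered all counts and fits but are not reported here by name or plotted. Named in full were, per brain region comparison, up to 4 channel promoters in each direction that were called in full and equal lists, with further ones named where they met the stricter rule, per treatment comparison the called regions, or those of smallest p, genes without a top-list promoter peak, and the 3 genes most like Scn4b and Cacna2d1. Replicate labels such as 12-2 hold a pair of numbers whose meaning is not given in the sources used here. The first was tried as a block, since it could mark a litter, and the whole label as a block for the animal across brain regions. The correlation within the first number was −0.0159 in hypothalamus, 0.0336 in PFC, 0.00141 in hippocampus and −0.00143 in striatum, and 0.0186 within the whole label for promoters.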

Additional observations from a re-analysis of the deposited data

Results flagged for a closer look

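In the 24 groups of 4 to 10 libraries that were checked for a library far from the others at a called channel region, 4 were found. The cut-off assumes normal values, whereas ranks are bounded and libraries without a peak gather at low ranks. The regions were also chosen because they were called, so no chance rate is given. At the Cacna1e intron of the hypothalamus, the SAL-SAL male 3-2 had a rank of 88.0, with the nearest other library at 39.4. At the Cacna1i intron of the striatum, the MOR-SAL female 7-2 had a rank of 84.3 (nearest 36.4) and the SAL-SAL male 3-0 a rank of 65.3 (nearest 41.6). At a Cacna1c intron of the striatum, the SAL-SAL male 3-2 had a rank of 87.1 (nearest 53.1).

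By the interaction term of limma, the LPS effect differed between morphine-exposed and saline-exposed mice at 2 of 105 hypothalamic channel regions. Over all regions 1.86% were called, so the count is near the background share. At the Cacnb2 promoter the interaction was −44.6 (adjusted p = 0.0441, over 12 alternatives from 0.0173 to 0.283). At the Scn3a exon it was −56.3 (adjusted p = 0.0445, over 12 alternatives from 0.0279 to 0.145). Neither was called in lists of equal length. The calls were lost in 20 and 24 of 41 refits that left out 1 library each, and no cause was tested.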

How the results depend on the processing

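Of 705 values of named promoters and regions under an alternative, 510 kept their call, 189 kept their direction without passing the threshold, and 6 turned in direction. The 6 were promoter values within a single treatment group: Cacng8 in SAL-LPS libraries alone (−1.86 for hippocampus minus hypothalamus, 3.92 for striatum minus hippocampus), Scn8a in MOR-SAL alone (−2.5, PFC minus hypothalamus) and SAL-SAL alone (−4.06, PFC minus striatum), Cacng7 in SAL-LPS alone (2.73, PFC minus hypothalamus) and Cacna1a in MOR-LPS alone (−2.07, PFC minus striatum). The cause was not tested, beyond the smaller number of libraries. Of 325 counts and shares, 256 stayed within 1.5 times the reported value or the spread between libraries. The 325 include comparisons in which no channel region was called as reported. A count that stayed empty there is unchanged by definition, so the 256 do not measure how stable the counts with calls are. Calls over all regions and genes moved with the processing too and are not given for each alternative below. The counts therefore show how calls moved and are no result about channel genes. For MOR-LPS against SAL-LPS, lists of equal length took all calls from 594 to 175 in hypothalamus and from 1395 to 2 in striatum.

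Hypothalamic channel regions called between MOR-LPS and SAL-LPS, 4 as reported, were 1 in lists of equal length (also with unmarked regions at 0) and 0 with the neuron marker term. Between MOR-LPS and MOR-SAL, 2 as reported, they were 5 without a term for sex, 1 with the neuron marker term and 0 with the thalamus marker term. Between SAL-LPS and SAL-SAL, 1 as reported, they were 0 in lists of equal length, with stricter peaks and with the thalamus marker term. The interaction, 2 as reported, gave 0 in lists of equal length, with stricter peaks, with the neuron marker term and without libraries of high oligodendrocyte share, 1 with unmarked regions at 0, and 4 without a term for sex or with the thalamus marker term. With single libraries left out the counts ranged from 1 to 10, 1 to 7, 0 to 3 and 0 to 5 in this order of comparisons. The highest values of the first 2 ranges were found without MOR-LPS male 13-2, and the lowest without MOR-LPS male 14-4, where both were 1 (the first also without MOR-LPS female 15-3).

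In striatum, the 4 regions between MOR-LPS and SAL-LPS became 0 in lists of equal length, with the neuron marker term, without a term for sex and without libraries of high oligodendrocyte share, 2 with stricter peaks and 8 with the number of peaks as a term, and ranged from 0 to 13 (13 without MOR-LPS female 12-2) with single libraries left out. The 2 regions between MOR-LPS and MOR-SAL became 0 in lists of equal length and without libraries of high oligodendrocyte share, and 1 with stricter peaks, with the number of peaks as a term and with unmarked regions at 0, and ranged from 1 to 4. The interaction, 0 as reported, gave 4 with the neuron marker term.

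Channel promoters called in full lists numbered 14 for hippocampus minus hypothalamus, 12 for striatum minus hippocampus, 8 for striatum minus hypothalamus, 20 for PFC minus hippocampus, 24 for PFC minus hypothalamus and 15 for PFC minus striatum. Within MOR-LPS libraries alone they were 3, 7, 0, 6, 3 and 1. Within SAL-LPS alone the first 3 comparisons gave 5, 3 and 0 and PFC minus hypothalamus 12. Within MOR-SAL alone they were 4, 3, 0, 2, 0 and 0. Within SAL-SAL alone the last 5 comparisons gave 4, 2, 5, 4 and 0. Calls over all 21670 genes moved as well. For hippocampus minus hypothalamus, 1629 were higher and 1601 lower in all libraries. Within MOR-LPS alone these were 197 and 139, and within SAL-SAL alone 1666 and 7986. Of the channel promoters, striatum minus hypothalamus gave 3 in lists of equal length. With unmarked promoters at 0 the 3 comparisons with PFC gave 12, 13 and 5, and in lists of equal length 13, 11 and 7. PFC minus striatum gave 8 with the filter on low values, and PFC minus hypothalamus 12 with the number of peaks as a term. The mean share of channel promoters in the top list was 29.2% in PFC and 27% in hippocampus, 17.2% and 16.0% with 5000 peaks, and 43.4%, 42.2%, 34.3% in hypothalamus and 36.6% in striatum with 20000 peaks.

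With a replicate block (the first number of the replicate label as a random term), 4 of 105 hypothalamic channel regions were called between MOR-LPS and SAL-LPS, 1 higher and 3 lower, and Cacnb2 differed by −30.9 (adjusted p = 0.0207). Groups of the same perinatal treatment share some of these numbers, whose meaning is not given. The correlations within them were below 0.1, and no count of channel regions moved by more than 1.5 times. With the whole label, taken as the animal, as a block, PFC minus hypothalamus gave 25 promoters and the other brain region comparisons the same counts. Depth limits these values in that a region without a peak has no measured level, and the 4 counts of hypothalamus rest on 8 to 12 libraries per group.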
